A study of Mus musculus with 6 samples.

Results

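The high-numbered zinc finger genes are the protein-coding mouse genes named Zfp with a 3-digit number that starts with 6, 7, 8 or 9, with or without a letter after it. They were chosen by symbol and biotype alone, and 182 of the 54532 genes in the expression table met the rule. Messenger RNA was sequenced from whole pancreatic islets of 7-week-old mice, with 3 control libraries (genotype Ythdc1flox/flox, the Ythdc1 gene flanked by loxP sites) and 3 bKO libraries (Ythdc1-βKO, Ythdc1 deleted in beta cells). The labels call the libraries of a group independent biological replicates, and they do not say whether islets of several mice were pooled. The Cre transgene that deletes the gene was not given in the sources used here, and neither was whether the control mice carried it. For bKO replicates 2 and 3 a description line names Ythdc2 and Ythdc3, while the genotype label of all 3 gives Ythdc1.

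A C2H2 zinc finger is a short fold in which a pair of cysteines and a pair of histidines hold a zinc ion, and proteins with many such fingers in a row bind DNA, each finger reading a few bases. Many mammalian members also carry a KRAB box, a short domain near the start of the protein that binds the corepressor TRIM28. TRIM28 brings in the histone methyltransferase SETDB1, HP1 proteins and the NuRD complex, and the targets, often copies of retroelements, are silenced. YTHDC1 is a nuclear reader of N6-methyladenosine in RNA with known parts in splicing, polyadenylation site choice and export, and in mouse embryonic stem cells it has been tied to silencing of retroelements together with SETDB1.

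The targeted gene gave the check of the labels. Ythdc1 stood at 5.76, 6.46 and 6.18 FPKM (fragments per kilobase of gene, corrected for library size) in control and at 3.81, 3.79 and 3.87 in bKO, so all 3 bKO libraries lay below all controls (log2 difference -0.56, SE 0.058, limma adjusted p = 0.0014). Libraries held 16863329 to 18240339 reads. Beta cell markers were lower in bKO for 5 of 7 genes, with a summed level of 200691 to 222377 FPKM in control and 130557 to 139637 in bKO. In the rest of this paragraph, ranges in brackets are levels summed over all genes of a list, called or not. Proliferation markers were lower for 5 of 5 (14.1 to 15.6 against 5.50 to 6.59 FPKM). Of 6 macrophage markers 1 was lower (40.0 to 41.5 against 21.9 to 27.3 FPKM) and the 1 lymphocyte marker of 3 that was tested was lower (4.02 to 6.81 against 0.719 to 1.63 FPKM). Higher in bKO were 4 of 7 endothelial (143 to 166 against 184 to 189 FPKM) and 2 of 4 delta and PP cell markers (9796 to 11985 against 16229 to 19274 FPKM). So were 3 of 4 Schwann cell (2.35 to 3.78 against 4.54 to 5.66 FPKM) and 1 of 4 mesenchymal markers (8.86 to 11.0 against 11.6 to 13.1 FPKM). Of 5 alpha cell markers 1 was higher, while the summed level of that list overlapped between the groups (18420 to 22396 against 16772 to 20067 FPKM). Of 6 acinar markers 5 were tested and of 4 duct markers 2, and none of those tested was called (summed over each list, 43.5 to 139 against 89.0 to 124 FPKM and 11.3 to 12.3 against 12.4 to 13.7 FPKM), and no marker was without reads. The part of these cell types in the values below was not tested, and in RNA of whole islets fewer cells of a type and less RNA per cell cannot be told apart.

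Most of the 182 genes looked alike in their protein plan. In the GENCODE vM21 annotation, which held all 182 and gave 176 the same start and end as the deposited table, at least 1 C2H2 finger pattern was found in 168 proteins and at least 2 in 165, with a median of 11 over all members and a maximum of 33 in Zfp619. All fingers lay in 1 exon in 155 members, and in 145 that exon was the last of the transcript. A KRAB box pattern was found in 130 members and not in the other 52. Of these, 127 also had a finger pattern. The search for the box ended at the first finger, so its place ahead of the fingers was set by the search. In the other 3 (Zfp781, Zfp935 and Zfp972) no finger pattern was found. The unit that repeats can be read in 84-base stretches of coding sequence (GRCm38), each a finger with the linker to the next. Zfp651 and Zfp697 are shown because they had the largest fall and rise, and Zfp868 and Zfp869 because they are neighbours on chromosome 8 of which only the former was called. Capitals mark the codons of the 2 cysteines and 2 histidines that hold the zinc.
Zfp651 (chr9:121766493-121766576, plus strand): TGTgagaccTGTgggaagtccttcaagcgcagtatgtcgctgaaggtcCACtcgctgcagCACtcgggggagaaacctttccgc
Zfp697 (chr3:98427848-98427931, plus strand): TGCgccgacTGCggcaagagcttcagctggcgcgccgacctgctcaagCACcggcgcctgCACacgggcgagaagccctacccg
Zfp868 (chr8:69612047-69612130, minus strand): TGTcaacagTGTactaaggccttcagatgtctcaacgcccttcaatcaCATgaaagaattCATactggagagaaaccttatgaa
Zfp869 (chr8:69707295-69707378, minus strand): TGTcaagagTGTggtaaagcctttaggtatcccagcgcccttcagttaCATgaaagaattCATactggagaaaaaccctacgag
For Zfp651, Zfp697 and Zfp868 the first such unit of the protein is shown. For Zfp869 the unit closest to that of Zfp868 was picked from 9. The stretches of Zfp868 and Zfp869 differed at 15 of 84 bases, while those of Zfp651 and Zfp697 differed from that of Zfp868 at 45 and 41. Because of that choice, these counts do not measure how related the genes are.

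Islets expressed most of these genes at low levels, and few differed between the genotypes. A filter of at least 0.5 FPKM in at least 3 libraries kept 147 of the 182 genes for testing. Of the other 35, 6 had no read in any library (Zfp616, Zfp648, Zfp735, Zfp819, Zfp935 and Zfp990) and 29 had some. Over the 147 tested genes the median of the mean level was 3.13 FPKM, and 7 reached 10 FPKM. With limma at an adjusted p under 0.05, 7 members were higher in bKO, where 8.96% of all 15717 genes tested were higher, and 11 were lower, where 11.4% of all genes were lower. Together 18 of 147 members, 12.2%, were called, against 20.3% of all genes. The median log2 difference was 0.02 over the tested members and -0.01 over all genes, and the middle 50% of members lay between -0.10 and 0.15. No member passed 1 on that scale in either direction, and 3 passed 0.5 (Zfp697, Zfp651 and Zfp971).

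The groups did not overlap for 46 of 147 members, against 40.1% of all genes. All 3 bKO libraries were above all 3 controls for 28 members, against 18.5% of all genes, and below them for 18, against 21.6%. The summed level of all 182 members was 630 ± 18 FPKM in control and 634 ± 3.9 in bKO (SD, n = 3 each). Their share of all reads was 0.306 ± 0.013% in control and 0.348 ± 0.0046% in bKO (SD, n = 3 each). The quantities differ in scaling: the deposited FPKM follow size factors, which were 0.923 to 0.988 in control and 1.04 to 1.10 in bKO, whereas a share follows the library total. With totals as the scale, the all-gene median went to 0.13 from -0.01, and the members' median was 0.16, and 33 members were then higher and 2 lower, where 23.5% and 4.68% of all genes were. The counts also moved with single libraries: without 1 library they ran from 2 to 9 higher, fewest without control replicate 1, and from 3 to 6 lower, fewest without control replicate 1 or 3. The called share of all genes went down as well, from 20.3% to 12.1% without control replicate 1 and 17.7% without control replicate 3, the ends of its range.

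**Figure D1:**
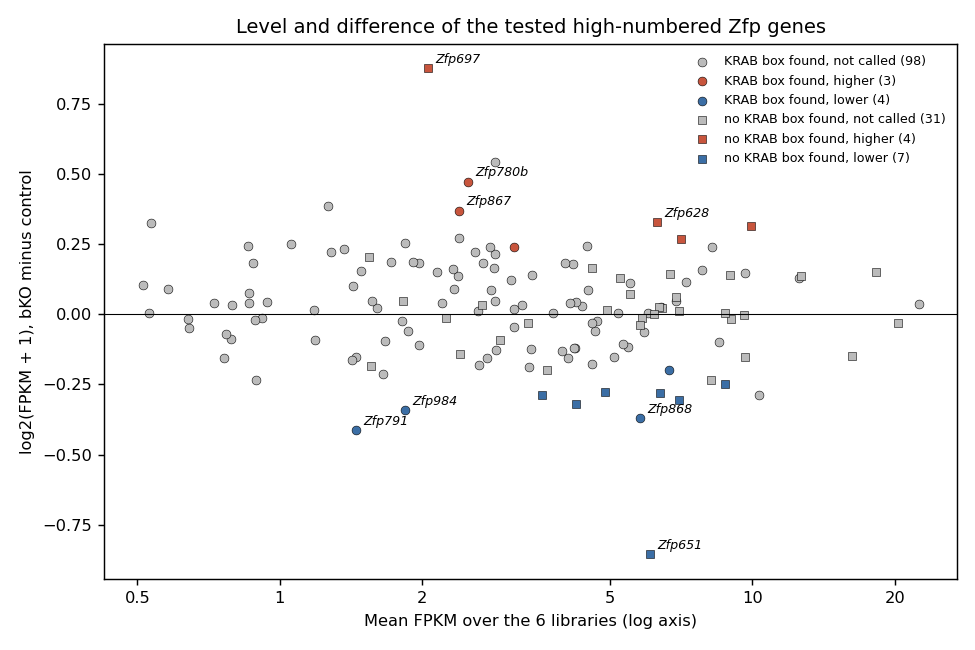
Mean FPKM over the 6 libraries (horizontal log axis) against the difference in log2(FPKM + 1), bKO minus control (vertical axis), for the 147 tested genes; circles have a KRAB box pattern, squares have none, red was called higher, blue lower, grey neither. Most points lie within 0.25 of 0, and Zfp697 and Zfp651 stand farthest from it.

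Among the 11 genes that fell, Zfp651 had the largest difference. Zfp651 (ENSMUSG00000013419, chromosome 9, 121759330 to 121771742) is also named Zbtb47 and belongs to the BTB zinc finger family, with a BTB domain in place of a KRAB box. Its level was 8.73, 7.81 and 7.81 FPKM in control and 4.08, 3.83 and 4.19 in bKO. Every bKO library was far below every control, with control means 2.01 times those of bKO (log2 difference -0.86, SE 0.063, limma adjusted p = 0.000452). It was called in all 15 other settings of the analysis, with differences from -1.01 to -0.71. Its start overlaps E530011L22Rik, a non-coding gene that was at 0.731 FPKM on average in control and 0.475 in bKO and was not called.

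Zfp868 (chromosome 8, 69610857 to 69625548), with a KRAB box and 9 fingers, was at 6.91, 6.34 and 6.68 FPKM in control and at 4.66, 5.02 and 5.07 in bKO. The groups did not overlap (log2 difference -0.37, SE 0.057, limma adjusted p = 0.00615), and the call held in all 15 other settings. Its neighbours in the same 582 kb did not follow. Zfp869, the most abundant of all the members, was at 21.2, 21.1 and 24.4 FPKM in control and at 22.5, 22.03 and 23.7 in bKO (0.04, SE 0.065, limma adjusted p = 0.74). Zfp866 lay at 7.26, 6.88 and 8.26 against 8.95, 8.77 and 9.22 FPKM (0.24, SE 0.069, limma adjusted p = 0.051), higher in every bKO library but not called. Zfp868 shared 1.34% of its 100-base stretches with other genes, all with Zfp869.

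Zfp746 encodes PARIS, a repressor of Ppargc1a and a substrate of the ubiquitin ligase parkin. It is known as a KRAB protein, but its box did not match the pattern searched, which can miss diverged boxes. Its level was 7.36, 6.99 and 6.95 FPKM in control and 5.59, 5.56 and 5.87 in bKO, with no overlap (log2 difference -0.28, SE 0.051, limma adjusted p = 0.0106). Zfp777, its neighbour on chromosome 6, was at 10.4, 8.81 and 9.49 against 7.94, 7.89 and 7.82 FPKM, likewise apart (-0.25, limma adjusted p = 0.0354). Both genes lost the call with totals as the scale (-0.13 and -0.09, limma adjusted p = 0.0969 and 0.297). Leaving out a library ended the call of Zfp777 except without control replicate 2, at -0.19 to -0.25, and never that of Zfp746.

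Zfp638 encodes NP220, a large nuclear protein with a matrin-type zinc finger that binds RNA and DNA and takes part in silencing of unintegrated retroviral DNA. It was at 7.97, 7.33 and 8.21 FPKM in control and at 5.79, 5.90 and 6.77 in bKO, with all bKO libraries lower (log2 difference -0.31, SE 0.072, limma adjusted p = 0.0272). Zfp639, also known as ZASC1, was at 4.09, 4.29 and 3.73 against 3.52, 2.92 and 2.96 FPKM, again without overlap (-0.29, limma adjusted p = 0.0499). Of its exonic bases 3.05% overlap Gm37592 on the other strand, which was not called (2.88 ± 1.19 against 1.24 ± 0.78 FPKM, SD, n = 3 each, limma adjusted p = 0.104). Zfp667, also known as Mipu1 and a KRAB member, had 6.80, 7.62 and 7.14 against 6.12, 6.03 and 6.24 FPKM (-0.20, limma adjusted p = 0.0464). In each of Zfp638, Zfp639 and Zfp667 the highest bKO library was below the lowest control.

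Of the 4 other genes that fell, Zfp637 went from 5.43 ± 0.13 to 4.32 ± 0.30 FPKM (SD, n = 3 each; -0.28, limma adjusted p = 0.0231). Zfp623 went from 4.81 ± 0.31 to 3.66 ± 0.37 FPKM (-0.32, limma adjusted p = 0.0309), and neither gene matched the KRAB box pattern. Zfp791 and Zfp984 have one and were expressed at less than 3 FPKM: Zfp791 was at 1.75, 1.54 and 2.12 against 1.06, 1.07 and 1.16 FPKM (-0.41, limma adjusted p = 0.0296), and Zfp984 at 2.07, 2.33 and 2.14 against 1.36, 1.69 and 1.49 FPKM (-0.34, limma adjusted p = 0.0308). Groups were apart in all 4, and the reads behind Zfp791 and Zfp984 numbered 57 to 117 in a library. Zfp984 shares 32.6% of its 100-base stretches with other genes. Only the 3 that share most were listed, Gm13212, Gm13147 and Zfp985, all of them under 0.1 FPKM. The value of Zfp984 is uncertain where reads with several matches were split. Of its exonic bases 9.68% overlap Gm20707 on the same strand, which was at 0.185 against 0.303 FPKM on average and was not tested. Without single libraries the fall kept its sign but the calls were lost: Zfp637 (kept only without bKO replicate 2) at -0.23 to -0.29, Zfp638 (kept without control replicate 2 or bKO replicate 3) at -0.27 to -0.29, Zfp623 (kept only without bKO replicate 1) at -0.28 to -0.35, Zfp791 (kept only without control replicate 2) at -0.33 to -0.44, Zfp984 (kept only without bKO replicate 2) at -0.30 to -0.37, Zfp639 (kept only without bKO replicate 1) at -0.25 to -0.33 and Zfp667 (lost without each of the 6) at -0.16 to -0.23. With library totals as the scale, Zfp651 and Zfp868 stayed called and the other 9 of the 11 did not, with values from -0.04 for Zfp667 to -0.31 for Zfp791.

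Among the 7 genes that rose, Zfp697 had the largest difference. Zfp697 (ENSMUSG00000050064, chromosome 3, 98382461 to 98753812) has 11 fingers and no match to the KRAB box pattern and has been studied in skeletal muscle remodelling. Its level was 1.03, 1.25 and 1.19 FPKM in control and 3.23, 2.81 and 2.84 in bKO. The lowest bKO library was above the highest control, and the mean was 2.56 times as high (log2 difference 0.88, SE 0.083, limma adjusted p = 0.00103). Between 137 and 514 reads in a library stand behind these values, and all 15 other settings gave the call, with 0.81 to 1.36. Annotated exons of Hsd3b2 and Hsd3b3 lie within its long span, and both were under 0.1 FPKM in every library.

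Zfp628, which is known for a role in the development of sperm cells, was at 5.48, 5.35 and 5.52 FPKM in control and at 7.14, 7.20 and 6.95 in bKO. The groups were well apart (log2 difference 0.33, SE 0.047, limma adjusted p = 0.00472), and the call held in all 15 other settings. Zfp692, also called AREBP, a zinc finger protein first described as a target of the AMP-activated kinase, had 8.29, 9.22 and 8.71 against 11.9, 10.8 and 10.7 FPKM, all bKO libraries higher (0.31, SE 0.061, limma adjusted p = 0.0141). Its call ended without control replicate 1 (0.28, limma adjusted p = 0.0507). Zfp646 was at 6.37, 6.69 and 5.90 against 7.68, 7.67 and 8.09 FPKM (0.27, limma adjusted p = 0.0202), also without overlap. The end of Zfp646 overlaps Prss53, which moved the opposite way, from 45.9, 36.7 and 42.2 to 13.7, 13.5 and 11.5 FPKM (-1.61, limma adjusted p = 0.000233), and its start overlaps Zfp668, which was not called (0.20, limma adjusted p = 0.143).

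The other 3 genes that rose carry a KRAB box. Zfp780b was at 1.87, 1.97 and 1.94 FPKM in control and at 2.54, 3.23 and 3.47 in bKO (log2 difference 0.47, SE 0.099, limma adjusted p = 0.0179). It shares 17.3% of its 100-base stretches with other genes, the 3 that share most being Zfp974, Zfp607a and Gm7452, so reads could be split between them. Zfp867 was at 1.66, 2.06 and 2.19 against 2.69, 2.83 and 2.96 FPKM (0.37, limma adjusted p = 0.0295), and Zfp748 at 2.82, 2.76 and 2.77 against 3.22, 3.54 and 3.67 FPKM (0.24, limma adjusted p = 0.0421). In all 3 genes every bKO library was above every control. Zfp748 overlaps 9430065F17Rik, which stood at 0.783 ± 0.085 against 1.34 ± 0.32 FPKM (SD, n = 3 each; limma adjusted p = 0.0684), and reads of the pair cannot be told apart where strand was not used. Without single libraries the calls were lost for Zfp780b (without control replicate 1, bKO replicate 2 or bKO replicate 3) at 0.40 to 0.46, for Zfp646 (without control replicate 1 or any bKO library) at 0.25 to 0.28, for Zfp867 (kept only without control replicate 3) at 0.29 to 0.40 and for Zfp748 (lost without each of the 6) at 0.21 to 0.28.

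**Figure D2:**
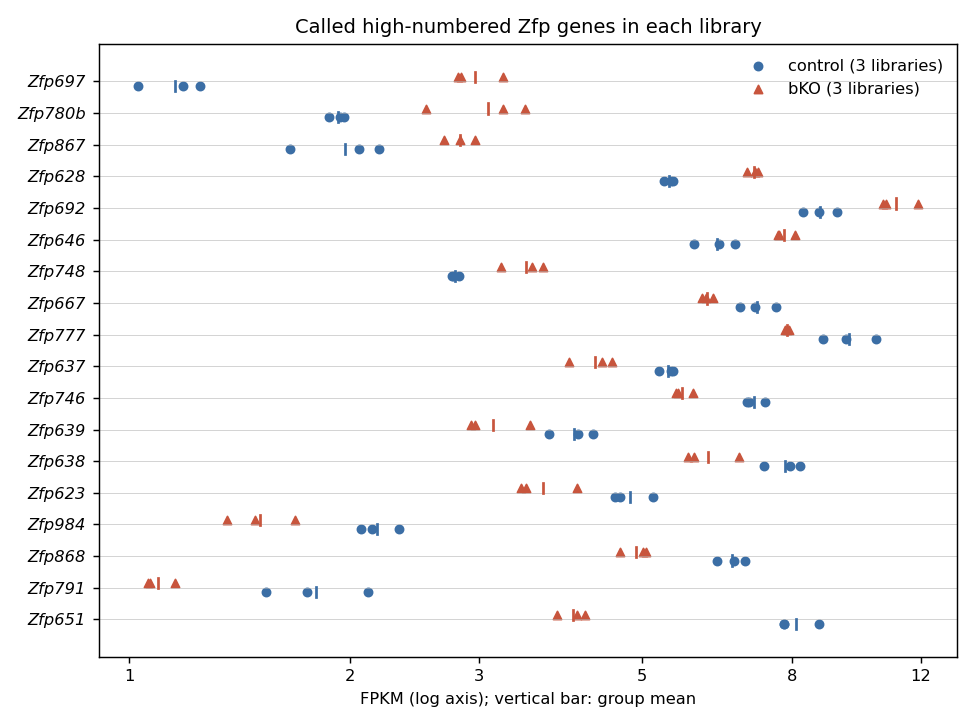
FPKM in each library (horizontal log axis) of the 18 called members (vertical axis, ordered by log2 difference); blue circles are the 3 control libraries, red triangles the 3 bKO libraries, and vertical bars the group means. The symbols of the groups do not overlap in any of the 18 genes, which were picked by the test on these same values. Among all genes tested the groups did not overlap in 40.1%. The gap is widest in Zfp697 and Zfp651.

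None of the 6 most abundant members was called. After Zfp869 came Zfp706, which encodes a small protein, at 19.9, 20.6 and 20.98 against 19.0, 21.1 and 20.1 FPKM, with interleaved groups (log2 difference -0.03, limma adjusted p = 0.715). Zfp740 was at 16.5, 18.5 and 16.9 against 19.97, 18.7 and 19.2 FPKM (0.15, limma adjusted p = 0.0972), and Zfp664 at 17.3, 16.4 and 17.6 against 15.5, 15.03 and 15.5 FPKM (-0.15, limma adjusted p = 0.0537). Both had groups apart and missed the threshold. Zfp687 was at 12.3, 11.8 and 11.9 against 13.1, 13.2 and 13.7 FPKM, again apart (0.14, limma adjusted p = 0.0607) and Zfp871, a KRAB member, at 11.96 ± 0.93 against 13.2 ± 0.89 FPKM (SD, n = 3 each; 0.13, limma adjusted p = 0.248).

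Zfp809 and Zfp932, both known for silencing of retroelements, were expressed and were not called. Zfp809, the KRAB protein that binds the proline primer binding site of murine leukaemia viruses, was at 9.71, 8.47 and 9.09 FPKM in control and at 10.2, 9.97 and 10.3 in bKO. All bKO libraries were slightly higher (log2 difference 0.15, SE 0.057, limma adjusted p = 0.114). Zfp932, a KRAB repressor of endogenous retroviruses, was at 5.01, 5.71 and 6.39 against 5.78, 5.18 and 4.61 FPKM, with overlapping groups (-0.11, SE 0.101, limma adjusted p = 0.464); it shares 24.8% of its 100-base stretches with other genes.

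The remaining members with a known role were also not called. Zfp800, which has been described in pancreas development, was at 6.003, 5.61 and 6.03 FPKM in control and at 6.08, 5.41 and 5.63 in bKO (log2 difference -0.04, limma adjusted p = 0.701). Zfp644, a partner of the H3K9 methyltransferases G9a and GLP, gave -0.03, Zfp618, a partner of UHRF2, gave 0.03, and Zfp768 gave 0.02 (limma adjusted p = 0.759, 0.830 and 0.822). Zfp622, an export and maturation factor of the large ribosomal subunit, gave 0.14, and Zfp830, a splicing-associated protein, gave -0.0035 (limma adjusted p = 0.160 and 0.977). Zfp827, a protein that recruits the NuRD complex, gave 0.17 (limma adjusted p = 0.116). Zfp703, which encodes a NET family repressor, gave -0.20, and Zfp704 gave 0.14 (limma adjusted p = 0.241 and 0.110). Zfp711, Zfp750, Zfp804a and Zfp804b stayed below 0.4 FPKM in every library and were not tested.

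The called genes were also counted by the match to the KRAB box pattern, which is not the same as having a box, since Zfp746 counts among those without a match. Of the 105 tested members with a match, 3 rose and 4 fell, 6.67%, with a median log2 difference of 0.04 and a median level of 2.63 FPKM. Of the 42 without a match, 4 rose and 7 fell, 26.2%, with a median of -0.00053 and a median level of 6.23 FPKM. Since level differed as well, the shares were also taken among genes at 3 FPKM or more: 3 of 43 with a match, 6.98%, and 10 of 34 without, 29.4%, where 25.4% of all genes at that level were called. These shares are descriptions and no test of their difference was made. The summed level of all genes with a match was 346 ± 19 FPKM in control and 354 ± 2.7 in bKO, and that of the others was 284 ± 0.79 against 280 ± 1.2 (SD, n = 3 each).

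By number of fingers, 91 tested genes with at least 10 gave 6 higher and 4 lower, and 48 with 1 to 9 gave 1 higher and 6 lower. Over all genes 8.96% were higher and 11.4% lower, and no test of a difference between these groups was made. Of 8 tested genes in which no finger pattern was found, 1 fell (Zfp638). Near-identical copies bear on a part of the family: 44 members shared over 10% of their 100-base stretches with another gene, and 28 of these were tested, of which 1 rose and 1 fell (Zfp780b and Zfp984). Among the 100 tested members whose exons overlap no other gene, 4 rose and 7 fell.

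The promoter windows (RefSeq, GRCm38.p6, from 250 bases before to 50 after the start) were found for 154 members. The median ratio of observed to expected CpG was 0.47 in 115 members with a match to the KRAB box pattern and 0.76 in 39 without a match. It was 0.38 over all 32851 promoters of the table, which holds several per gene and non-coding genes. The letters CCGGAAG, bound by ETS factors, stood on either strand in 18.2% of member promoters and in 8.86% of all. For GGGCGG, bound by SP and KLF factors, the shares were 42.9% and 35.7%, for the CRE half-site TGACGT 12.99% and 7.51%, for the NRF1 motif 6.49% and 4.60%, and for AAGATGGC of YY1 3.90% and 2.75%. The GGGCGG and TGACGT matches were not checked for overlap with the other motifs, and a match is a description of letters, not of binding.

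The genes lie on 20 chromosomes, with 38 on chromosome 7, 24 on 17, 20 on 4, 16 each on 8 and 2, and 14 on 13. Taking at least 3 members with starts less than 500 kb apart as a cluster, 17 clusters held 110 members, of which 89 were tested, 4 rose and 4 fell (8.99%). Of the 58 tested members outside clusters, 3 rose and 7 fell (17.2%), and both shares were below the 20.3% of all genes. In 10 clusters no gene was called. No cluster had calls in both directions, but only that on chromosome 6 held more than 1 called gene, so the calls say little about direction within clusters.

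Levels differed widely between clusters. The cluster on chromosome 4 (145510759 to 147848366) held 17 KRAB genes, of which 13 shared over 10% of their 100-base stretches, and only 7 reached the filter, with a median of 0.0513 FPKM over all 17. Zfp984 fell there, and the 7 tested genes had a median of -0.12. A cluster on chromosome 2 (175372436 to 175931100) was similar, with 1 of 4 genes tested. By contrast all 14 KRAB genes of the cluster on chromosome 17 (21383748 to 22867134) were tested, with a median level of 2.99 FPKM, and none was called; 5 differences were above 0 and the median was -0.09. In the other cluster on chromosome 17 (32771236 to 33303196) all 8 were tested, none was called, 6 differences were above 0 and the median was 0.11.

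The 7 clusters with calls held 1 called gene each, except that on chromosome 6 with 2. On chromosome 6 (47819266 to 48086593) Zfp746 and Zfp777 fell, and the other 2 of the 4 genes, Zfp786 and Zfp956, were not called. On chromosome 7 (127244274 to 127885996) Zfp646 rose, and 8 of the 9 genes had differences above 0, with a median of 0.12. Zfp780b was the only called gene of 6 on chromosome 7 (27689340 to 28014115), and Zfp748 the only one of 9 tested on chromosome 13 (67038596 to 67687071). Zfp971 on chromosome 2 had a larger difference than most called genes, at 2.40, 1.38 and 2.70 against 3.23, 3.65 and 3.73 FPKM, but the controls spread widely and it missed the threshold (0.54, SE 0.165, limma adjusted p = 0.0597).

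**Figure D3:**
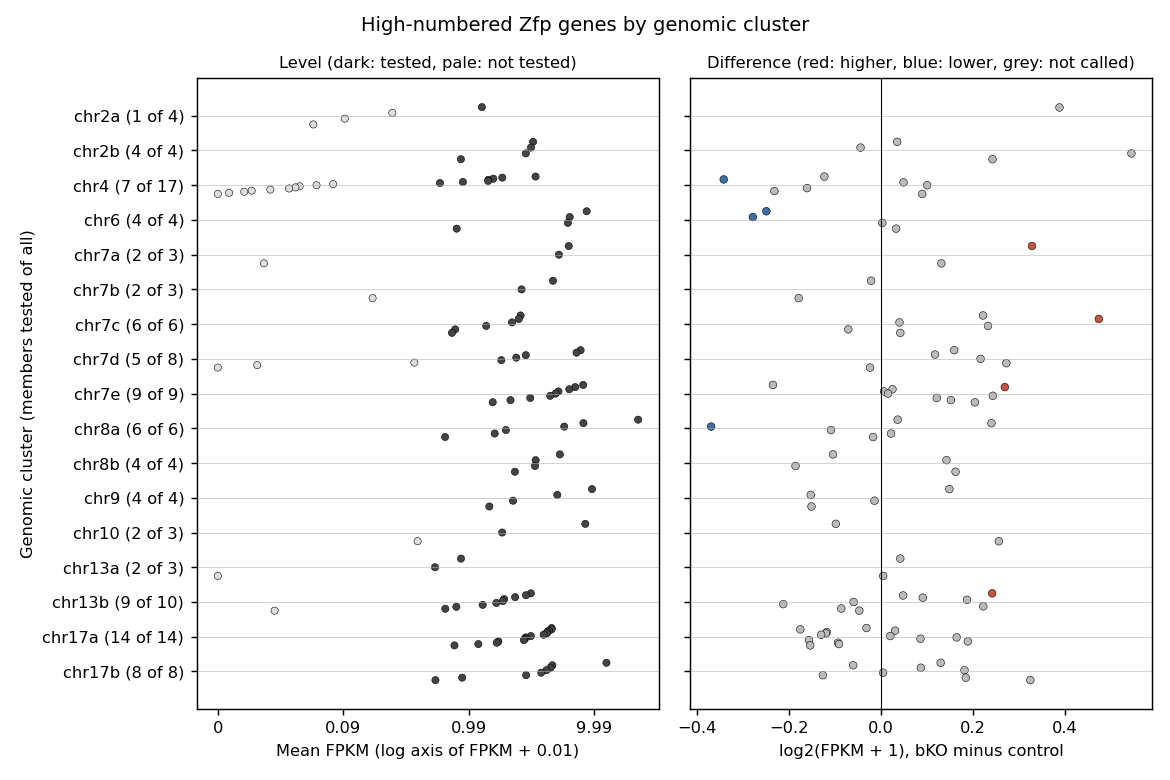
Mean FPKM over the 6 libraries of each member (left, log axis of FPKM + 0.01; dark points were tested, pale ones were not) and the difference in log2(FPKM + 1), bKO minus control, of tested members (right; red higher, blue lower, grey not called), by genomic cluster; letters after a chromosome number its clusters in order along it. The chromosome 4 cluster has 10 untested genes, while all 14 genes of the chromosome 17a cluster were tested and none was called.

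The partners of KRAB zinc fingers were read from a list of 25 genes, of which 24 were tested. Of these, 1 rose and 6 fell, where 8.96% and 11.4% of all genes did, with a median log2 difference of -0.09. The gene that rose was Setdb1, the H3K9 methyltransferase of the complex, at 6.62, 6.66 and 6.25 FPKM in control and 8.99, 8.97 and 9.02 in bKO. The bKO libraries were close together and all above control (log2 difference 0.41, SE 0.047, limma adjusted p = 0.002), and the call held in all 15 other settings. Trim28, the corepressor that the KRAB box binds, was at 33.1, 31.8 and 29.7 against 27.4, 28.1 and 29.1 FPKM, lower in every bKO library and not called (-0.15, SE 0.050, limma adjusted p = 0.0722).

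The 6 that fell belong to several steps of silencing. Hdac2, a histone deacetylase of the NuRD complex, was at 18.6, 19.9 and 19.0 FPKM in control and at 16.1, 14.8 and 14.5 in bKO, with groups apart (log2 difference -0.32, SE 0.053, limma adjusted p = 0.0081). The NuRD helicases Chd3 and Chd4 differed by -0.24 and -0.20, and Cbx1, an HP1 protein, by -0.21 (limma adjusted p = 0.0292, 0.0251 and 0.0199). The DNA methyltransferase Dnmt3a gave -0.19, and Uhrf1, which guides maintenance methylation and is high in dividing cells, gave -0.43 (limma adjusted p = 0.0198 and 0.0462); the proliferation markers fell in the same libraries, and their part was not tested. Zfp57, the KRAB protein of imprinted regions and no member by its number, was under 0.2 FPKM in every library and not tested.

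The size of these falls depended on scaling, and their calls depended on scaling and on single libraries. Without 1 library fewer genes were called over all genes too, 12.1% to 17.7% against 20.3%. With library totals as the scale none of the 6 was called, Hdac2 being at -0.15 (limma adjusted p = 0.0944). Leaving out a library never ended the call of Hdac2. For the others calls were lost without control replicate 1, control replicate 2 or bKO replicate 1 in all 5, and also without control replicate 3 in Chd3, bKO replicate 2 in Chd3, Chd4, Dnmt3a and Uhrf1, and bKO replicate 3 in Cbx1, Chd4 and Uhrf1. The values in those cases were -0.19 to -0.21 for Cbx1, -0.20 to -0.26 for Chd3, -0.16 to -0.22 for Chd4, -0.18 to -0.20 for Dnmt3a and -0.36 to -0.48 for Uhrf1.

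**Figure D4:**
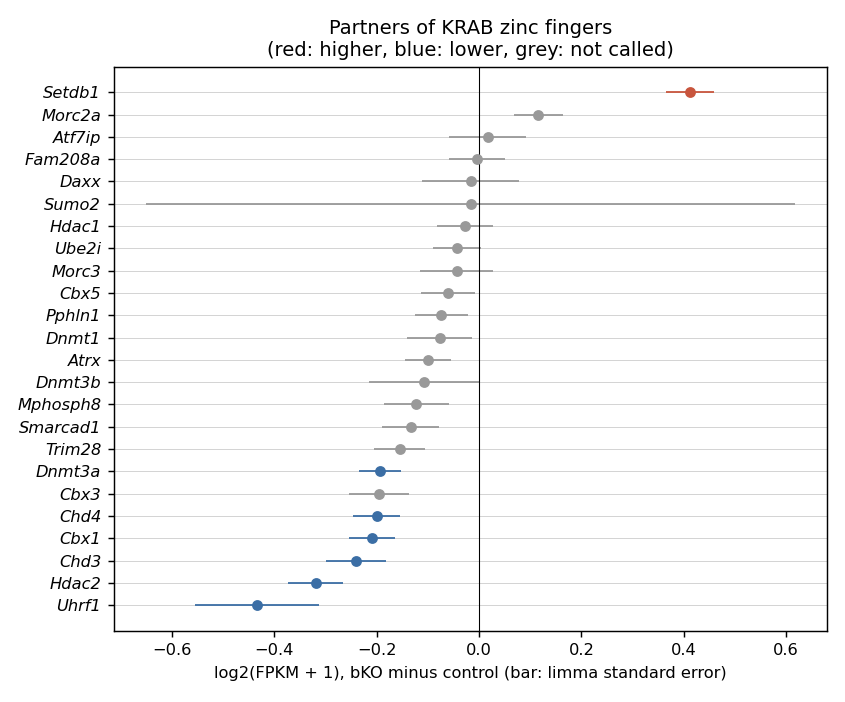
Difference in log2(FPKM + 1), bKO minus control (horizontal axis), with its limma standard error as a bar, for the 24 tested partners of KRAB zinc fingers (vertical axis); red was called higher, blue lower, grey neither. Setdb1 at 0.41 is the only called gene to the right of 0, and the 6 called to its left run from -0.19 to -0.43.

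The share of called genes, 20.3% over all genes, was also counted in related zinc finger families. Of 184 tested lower-numbered Zfp genes, 18 rose and 11 fell (15.8%), with a median log2 difference of 0.04. Among 37 tested Zbtb genes, the family Zfp651 belongs to, 4 rose and 4 fell (21.6%, median 0.06). Of 20 tested Zscan and Zkscan genes, 0 rose and 1 fell, and of 19 tested Klf and Sp genes, 3 rose and 0 fell. No test of a difference between these families and the high-numbered genes was made.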

How the data were processed

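Poly(A) RNA of pancreatic islets was sequenced in paired ends, per the labels' protocols, in 3 control and 3 bKO libraries, grouped by the genotype label. The submitters' processing notes name HISAT2 2.0.5, featureCounts 1.5.0-p3, DESeq2 1.20.0, CASAVA and the build GRCm38; whether strand was used, how multi-mapping reads were treated and which annotation was counted is not given in the sources used here. Values in the deposited table are FPKM that the authors made per gene. The gene length, another deposited column given by the authors, times FPKM and 1 factor per library gave whole reads within 0.01 for 100% of values above 0, and the factors followed median-of-ratios size factors. The table held 0 columns of other samples. Libraries of a group differed beyond sampling noise (chi-square per degree of freedom 4.09 to 6.50).

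In R 4.3.3, limma 3.58.1 compared log2(FPKM + 1) between groups, bKO against control without covariates, with a mean trend, over 15717 genes with at least 0.5 FPKM in at least 3 libraries; p-values were adjusted by Benjamini-Hochberg over all of them, at 0.05. This scale understates the change of low genes. The script was tested on simulated data. KRAB boxes and fingers were searched as patterns in translated GENCODE vM21 transcripts, shared sequence as 100-base stretches found in other genes' transcripts, and exon overlap as at least 1 base. Python 3.11.15, numpy 2.4.6, pandas 2.3.3 and matplotlib 3.10.9 were used.

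The members, gene lists and tests were chosen with earlier results of these data known. The genes named are all called members, the 6 highest by level, members with a known role, members of genomic clusters, Ythdc1 and called partners; genes that overlap or adjoin these, Trim28, Zfp57, the members without reads and Zfp971 were added after values were seen. Alternatives covered scaling, filters, pseudocounts, voom on the recovered reads, quantile normalization, a replicate block, exon overlap and single libraries.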

Additional observations from a re-analysis of the deposited data

How the results depend on the processing

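Against 7 members higher and 11 lower, scaling by library totals gave 33 and 2, no filter 4 and 4, the replicate block 4 and 5, and members free of exon overlap 4 and 7. A filter on CPM gave 11 higher and voom 16. Leaving out a library gave 2 to 9 higher and 3 to 6 lower. The called share of all genes moved as well, from 20.3% to 28.2% with totals and 8.23% with no filter. It was 13.2% with the replicate block, 25.1% with the CPM filter, 27.7% with voom and 12.1% to 17.7% without a library. The median of 0.02 became 0.16 with totals and -0.011 with quantile normalization. Of the partner list, 7 called became 2 with totals, 4 with quantile normalization, 2 with the replicate block and 2 to 7 without a library; the cause was not tested. Same-numbered libraries did not deviate together (correlations -0.05, -0.01 and -0.07; 0 of 3 control libraries correlated best with their own number), so the numbers were not taken as pairs and the replicate block is given only here.

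Of the 18 called members, 4 stayed called in all 15 alternatives (Zfp651, Zfp697, Zfp628 and Zfp868), and none changed sign. Among the members named, signs turned only in uncalled ones. With totals Zfp644 gave 0.11, Zfp664 0.019, Zfp706 0.14, Zfp800 0.11, Zfp830 0.16 and Zfp932 0.034. With quantile normalization Zfp618 gave -0.017, Zfp706 0.035 and Zfp830 0.020. Without a library Zfp618 ran from -0.020 to 0.12, Zfp644 from -0.061 to 0.0015, Zfp706 from -0.066 to 0.0074, Zfp768 from -0.027 to 0.070 and Zfp830 from -0.059 to 0.040. Called members had 57 to 2104 reads in a library, so the lowest are the least precise.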

Other observations

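A test on reads called further members. With voom on the recovered reads 11 members were called that limma on log2(FPKM + 1) did not call, 9 of them higher in bKO; voom called 12.5% of all genes tested higher and 15.2% lower. Zfp846 was at 0.878 FPKM on average in control and 1.23 in bKO, and Zfp811 at 0.362 against 0.705. Zfp971 (0.77 by voom, adjusted p = 0.00576) and Zfp612, which was lower (11.5 against 9.22 FPKM, adjusted p = 0.00271 by voom), were also among the 11. So were Zfp866, Zfp664, Zfp704, Zfp827 and Zfp740, given above as not called, with adjusted p of 0.00657 to 0.0434 by voom. Trim28, which is no member, was called lower by voom (adjusted p = 0.0277).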
